A study of Mus musculus with 12 samples.

Results

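Potassium channel genes were taken as every gene of the count table whose symbol starts with Kcn, followed by letters and a digit, which gave 86 of 17365 genes. Of these, 83 encode channel pores or their dedicated subunits and 3 are noncoding RNAs named after a channel gene (Kcnd3os, Kcnmb4os2 and Kcnq1ot1). The mean level was above 1 CPM (the TMM-scaled count of a gene relative to the library total) for 42 genes over the 12 libraries, and 51 genes had enough reads to be tested.

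The libraries are bulk RNA-seq of adult mouse neural stem cells (NSCs) from the subventricular zone (SVZ) of wild-type mice aged 6 to 8 weeks, grown on laminin below passage 10. Each of 2 lines, ANS4 (strain MF1) and BL6 (strain C57BL/6), was held for 3 days in EGF with FGF2 (EGF/FGF, proliferating), BMP4 alone (BMP, dormant quiescent or d-qNSCs) or BMP4 with FGF2 (BMP/FGF, primed quiescent or p-qNSCs), with every factor at 10 ng/ml and 2 replicates per line and condition. BMP therefore differs from EGF/FGF by the loss of both mitogens as well as by BMP4, BMP/FGF differs from EGF/FGF by BMP4 in place of EGF, and BMP/FGF differs from BMP by FGF2. A line is 1 derived culture, so the 4 libraries of a condition stand for 2 lines, and p-values measure the spread between these libraries.

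Potassium channels let potassium ions leave or enter the cell and set its resting membrane potential. Voltage-gated (Kv) channels open on depolarization, inward rectifiers (Kir) pass current near rest and clear potassium released by neighbouring cells, two-pore (K2P) channels carry a background leak, and the SK and BK channels open when calcium rises inside the cell. Glial cells and NSCs of the SVZ are known for a potential close to the potassium equilibrium, carried largely by Kir and K2P channels, and channel activity is one of the ways in which membrane potential is tied to proliferation.

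Total counts ran from 18069052 to 19451818 per library, so that 3 counts, taken as the limit of detection, corresponded to 0.155 to 0.168 CPM. In all libraries the NSC markers were abundant (7037 to 7560 CPM summed over 9 genes in EGF/FGF, 6223 to 7053 in BMP, 7464 to 7956 in BMP/FGF), whereas the 6 cell cycle markers fell from a sum of 2063 to 2520 CPM under EGF/FGF to one of 305 to 499 CPM under BMP and 211 to 227 CPM under BMP/FGF. Astrocyte markers summed to 2462 to 3047, 6867 to 8432 and 11000 to 11170 CPM in the same order. Vim was the largest part of the NSC sum, at a mean of 4037 CPM over the 12 libraries. In the edgeR test used below (FDR under 0.05), 5 of the 9 NSC markers were higher and 4 lower in BMP than in EGF/FGF. The same held in BMP/FGF. The 4 lower ones were Nes (−2.17 in BMP and −2.30 in BMP/FGF on the log2 scale), Fabp7, Olig2 and Egfr. Bulk libraries cannot separate fewer cells of a type from less RNA per cell.

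Transcription of the channel genes was concentrated in a few members. Per kilobase of the longest coding transcript, Kcnj10, the Kir4.1 channel of glia, stood highest at 133 CPM/kb, followed by Kcnip3 (54.3 CPM/kb), Kcnk2 (40.1), Kcna5 (28.2), Kcnk1 (26.2), Kcnd3 (24.2), Kcnc1 (19.6) and Kcna6 (15.2). With the median transcript length Kcnj10 still led, Kcnk2 and Kcnd3 moved above Kcnip3, Kcnk1 moved above Kcna5, and Kcna2 (19.7 CPM/kb) took the place of Kcna6 among the leading 8. Summed over the 83 members that are not noncoding RNAs, EGF/FGF libraries had 1860 to 2115 CPM, BMP libraries 1682 to 1879 and BMP/FGF libraries 2015 to 2041. Kcnj10 alone held 41.1% to 44.6% of that sum in EGF/FGF and 26.8% to 34.8% in BMP.

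The order below Kcnj10 depended on the condition. In EGF/FGF, Kcnip3 (69.1 CPM/kb) and Kcnc1 (44.6 CPM/kb) came next. In BMP the next were Kcnk2 (48.4 CPM/kb), Kcnip3 (40.1 CPM/kb) and Kcna5 (34.7 CPM/kb), and in BMP/FGF Kcnip3 (53.8 CPM/kb), Kcnk2 (48.4 CPM/kb) and Kcna5 (43.1 CPM/kb).

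At the other end, 36 members did not exceed 1 CPM in any library, and 17 had at most 3 counts in every library. The 35 untested members had means of at most 0.423 CPM: Kcna3, Kcna4, Kcna7, Kcna10, Kcnb2, Kcnc4, Kcng2, Kcng4, Kcns2, Kcnq1, Kcnh1, Kcnh6, Kcnh8, Kcnj1, Kcnj3, Kcnj5, Kcnj6, Kcnj8, Kcnj9, Kcnj13, Kcnj15, Kcnk4, Kcnk6, Kcnk7, Kcnk12, Kcnk18, Kcnn4, Kcne1, Kcne1l, Kcne2, Kcne4, Kcnip4, Kcnmb1, Kcnmb2 and Kcnd3os. Among them are the G protein-gated Kir3 genes (Kcnj3, Kcnj5, Kcnj6 and Kcnj9), Kcnn4 (the intermediate-conductance calcium-activated channel) and the detected minK-type subunits (Kcne genes). Of the 51 tested members, 9 had a mean at or below 1 CPM. A mean above 1 CPM was reached by 36 members in EGF/FGF, 42 in BMP and 42 in BMP/FGF, and by 26 in every library.

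**Figure D1:**
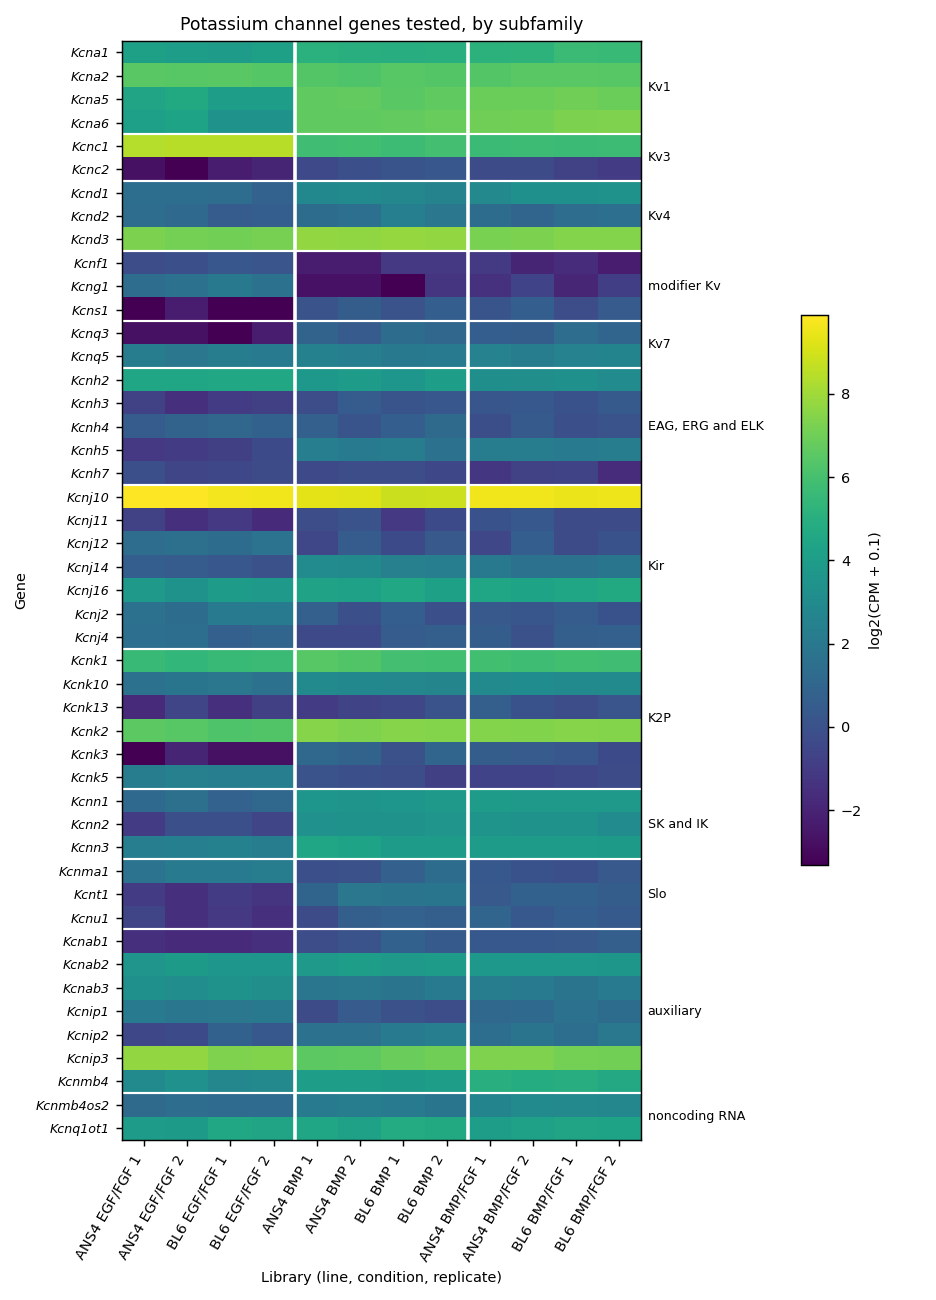
Levels of 47 of the 51 tested potassium channel genes (rows, grouped by subfamily) in the 12 libraries (columns, by condition, line and replicate), as log2(CPM + 0.1) on the colour scale. Kcnj10 is the brightest row in all conditions, the Kcnc1 row is brighter in EGF/FGF than in the other conditions, and the Kcna5, Kcna6 and Kcnn1 to Kcnn3 rows are brighter in both BMP conditions.

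On leaving EGF/FGF most of the tested channel genes changed (88.2% in BMP and 90.2% in BMP/FGF), as did most of all tested genes. In BMP, 32 of 51 were higher and 13 lower in a two-sided quasi-likelihood F-test of edgeR with line as covariate (FDR under 0.05), beside 40.8% and 38.8% of all 13312 tested genes (79.6% in either direction), and their median log2 fold change was 0.79 against 0.019 for all genes. In BMP/FGF, 31 were higher and 15 lower, beside 40.9% and 38.0% of all genes (78.9% in either direction), with a median of 1.05 against 0.022. Past a log2 fold change of 1.5 there were 18 higher and 8 lower members in BMP (10.9% and 6.95% of all genes, 17.8% together) and 19 higher and 7 lower in BMP/FGF (10.6% and 6.08%, 16.7% together). A gene reaches the test if it is expressed in only 1 condition, and both contrasts use the same EGF/FGF libraries, so these counts describe the tested members only.

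Between the quiescent conditions 29 of the 51 tested channel genes were not called, and the others divided evenly, near the shares of all genes. In BMP/FGF, 11 of 51 were higher and 11 lower than in BMP, beside 20.1% and 21.3% of all genes (41.4% in either direction), and their median log2 fold change was −0.04 against −0.0035. Past 1.5 there was 1 gene in each direction, the higher one being Kcng1 (0.901% and 0.684% of all genes, 1.59% together).

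**Figure D2:**
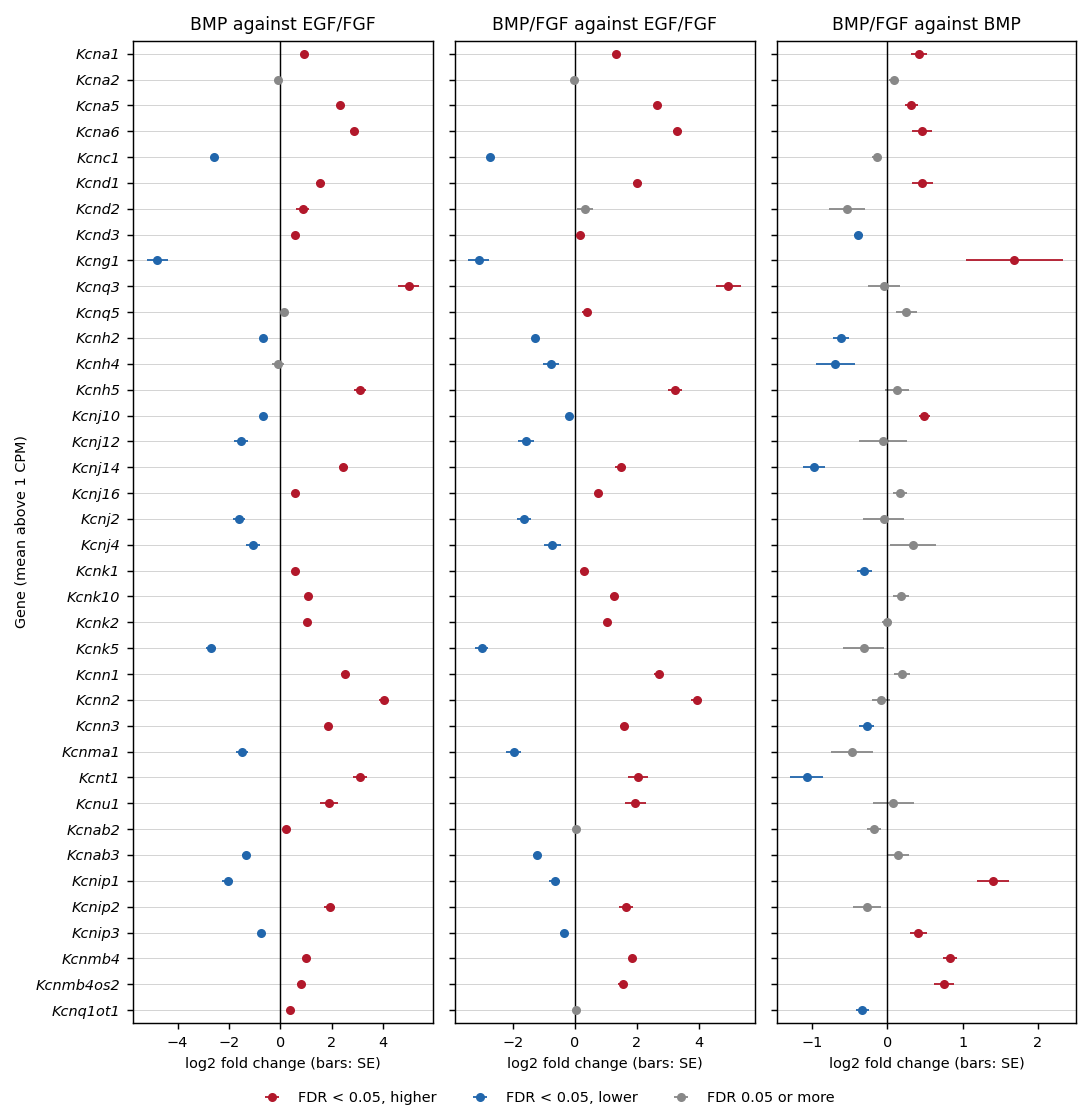
Log2 fold change (x axis, bars 1 SE) of 38 potassium channel genes with a mean above 1 CPM (y axis) in the 3 comparisons. Kcng1, Kcnk5 and Kcnc1 lie farthest to the left and Kcnq3 and Kcnn2 far to the right in BMP against EGF/FGF, while most points of BMP/FGF against BMP lie within 1 of zero.

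Among the Kv1 genes, 8 were listed, 4 were tested and 3 were higher in both quiescent conditions. Of all tested genes, 40.8% were higher in BMP and 40.9% in BMP/FGF than in EGF/FGF. Kcna6 (Kv1.6) was at 17.5, 19.9, 10.6 and 10.6 CPM in EGF/FGF (ANS4 replicates 1 and 2, then BL6 replicates 1 and 2, an order kept throughout), at 102, 100.5, 106 and 113 in BMP and at 131, 134, 157 and 159 in BMP/FGF. The conditions did not overlap, and the BL6 libraries were lowest in EGF/FGF and highest in BMP/FGF. The log2 fold change was 2.85 (SE 0.15, FDR = 6.68e-12) in BMP and 3.31 (SE 0.15, FDR = 9.67e-13) in BMP/FGF against EGF/FGF, and 0.46 (SE 0.13, FDR = 0.00909) between BMP/FGF and BMP, the last at FDR = 0.0561 with DESeq2.

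Kcna5 (Kv1.5) followed the same order. It lay at 20.7, 25.5, 16.0 and 16.6 CPM in EGF/FGF, 102, 105, 90.3 and 99.7 in BMP and 122, 120.0, 129 and 122 in BMP/FGF, again without overlap. It rose 5.06-fold in BMP (log2 fold change 2.34, SE 0.10, FDR = 2.49e-13) and 6.31-fold in BMP/FGF (FDR = 4.79e-14), and was 1.25-fold higher in BMP/FGF than in BMP (FDR = 0.00715). Kcna1 (Kv1.1) had 18.0, 16.8, 14.8 and 18.4 CPM in EGF/FGF, 34.4, 32.2, 30.2 and 30.5 in BMP and 35.8, 36.5, 51.4 and 48.5 in BMP/FGF. Its rise over EGF/FGF (log2 fold change 0.90, SE 0.11, FDR = 7.14e-07 in BMP, and 1.33, SE 0.11, FDR = 3.82e-09 in BMP/FGF) was seen in both lines, whereas the further rise from BMP to BMP/FGF (0.43, SE 0.11, FDR = 0.00375) was 0.12 with the ANS4 libraries alone (FDR = 0.258).

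Kcna2 (Kv1.2), by contrast, stayed within a narrow range, with means of 88.7 ± 2.78, 82.5 ± 5.15 and 87.6 ± 3.71 CPM in EGF/FGF, BMP and BMP/FGF (SD, n = 4). Its differences were −0.10 (SE 0.06, FDR = 0.113), −0.02 (SE 0.06, FDR = 0.795) and 0.09 (SE 0.06, FDR = 0.255) on the log2 scale, and none passed the test.

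The Kv1 genes lie in 2 clusters in the mouse genome (GRCm38, the mm10 assembly). Kcna5 (chromosome 6, 126532551 to 126535412), Kcna1 (126640397 to 126646384) and Kcna6 (126708329 to 126740674) follow each other on the minus strand within 208124 bases, and each was higher in all 3 comparisons. Kcna3, Kcna2 (chromosome 3, 107101146 to 107115005) and Kcna10 form the other cluster, in which only Kcna2 had enough reads to be tested. Of the tested neighbours within 500000 bases of the chromosome 6 cluster, Rad51ap1 (a recombination factor of dividing cells) fell by 2.95 and Tigar (a fructose bisphosphatase) by 0.81 on the log2 scale in BMP against EGF/FGF. The long noncoding 9330179D12Rik was higher by 3.07, D6Wsu163e by 0.40, and Ndufa9 (a complex I subunit) and Ccnd2 (cyclin D2) were lower by −0.21 and −0.20. The neighbours thus went both ways.

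The electrically silent Kv subunits, which open no pore of their own but modify Kv2 channels, went both ways. Kcng1 (Kv6.1) was at 2.54, 2.94, 3.90 and 3.10 CPM in EGF/FGF, at 0.0552, 0.0553, 0 and 0.313 in BMP and at 0.269, 0.539, 0.168 and 0.447 in BMP/FGF. The quiescent libraries all lay below the EGF/FGF libraries but overlapped each other (log2 fold changes −4.79, SE 0.42, FDR = 8.69e-09 and −3.10, SE 0.34, FDR = 1.64e-07). The BMP/FGF against BMP value of 1.69 (SE 0.64, FDR = 0.0432) rests on a few counts: it lost its call under 13 of 20 alternatives, came to 0.95 (FDR = 0.442) in the BL6 libraries alone and to 3.06 without BL6 BMP replicate 2.

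Kcnf1 (Kv5.1) fell as well, from 0.932 ± 0.154 CPM to 0.237 ± 0.146 in BMP and 0.218 ± 0.115 in BMP/FGF (SD, n = 4; log2 fold changes −1.94, FDR = 0.000120 and −2.04, FDR = 9.43e-05). Kcns1 (Kv9.1) was in the opposite direction. It had at most 3 counts in every EGF/FGF library, 0.938, 1.38, 0.933 and 1.46 CPM in BMP and 0.970, 1.45, 0.782 and 1.28 in BMP/FGF, which makes it at least 7.55-fold and at least 7.19-fold higher (against 3 counts per library; FDR = 2.66e-07 and 4.06e-07).

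The Kv3 genes encode high-threshold channels that open and close fast, best known from fast-spiking neurons. Kcnc1 (Kv3.1; chromosome 7, 46396497 to 46438704) had the lowest FDR of all members in BMP against EGF/FGF. Its level was 343, 347, 348 and 347 CPM in EGF/FGF, 56.2, 58.6, 53.5 and 60.7 in BMP and 51.9, 53.0, 50.8 and 52.3 in BMP/FGF. Proliferating libraries agreed within a few CPM across both lines and lay far above all quiescent ones. The log2 fold change was −2.60 (SE 0.06, FDR = 1.19e-16) in BMP and −2.74 (SE 0.06, FDR = 1.42e-16) in BMP/FGF, and the quiescent conditions differed by −0.14 (SE 0.06, FDR = 0.0599).

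Kcnc2 (Kv3.2) differed in direction from Kcnc1. With at most 3 counts in every EGF/FGF library, it was at least 5.72-fold higher in BMP and at least 3.68-fold higher in BMP/FGF (FDR = 3.50e-06 and 0.000102), with 0.662, 0.830, 0.984 and 1.09 CPM in BMP and 0.391 to 0.700 CPM in BMP/FGF.

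Upstream sequence was examined for the hexamer GGCGCC, a palindrome known as a binding element of the BMP-activated SMAD proteins and the only motif searched. In the 250 bases before the RefSeq start (GRCm38.p6), 14 of the 64 members with a promoter entry (21.9%) held it, beside 10.8% of all 27025 genes with an entry. Counted per promoter, the shares were 16.1% of 87 and 9.59% of 32851. Among tested genes, 9 of 35 members (25.7%) and 2130 of 10585 genes (20.1%) held it. It was found in 5 of the 19 members higher in BMP than in EGF/FGF that had an entry and in 3 of the 11 that were lower. The 60-base windows of 1 gene of each direction are shown 5′ to 3′ on the gene's strand, with the hexamer in capitals. The copy shown begins 38 bases before the start of Kcnc1 (plus strand), which fell, and 89 bases before that of Kcnh5 (minus strand), which rose. Kcnc1 holds another copy, not shown, that begins 127 bases before its start.
Kcnc1, chr7:46396403-46396462: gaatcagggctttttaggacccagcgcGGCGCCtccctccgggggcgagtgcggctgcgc
Kcnh5, chr12:75177389-75177448: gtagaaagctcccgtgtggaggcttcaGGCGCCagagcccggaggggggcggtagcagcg
The hexamer was thus present upstream of members of either direction, in 26.3% of those higher and 27.3% of those lower.

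In BMP against EGF/FGF, where 40.8% of all tested genes were higher, so were all 3 Kv4 genes, which carry the fast-inactivating A-type current. Kcnd3 (Kv4.3), by far the most abundant of them per kilobase, was at 155, 139.6, 136 and 146 CPM in EGF/FGF, 212, 204, 219 and 216 in BMP and 152, 155, 176 and 172 in BMP/FGF. BMP stood apart from both other conditions, which overlapped (log2 fold change 0.56, SE 0.06, FDR = 1.36e-07 against EGF/FGF, and −0.38, SE 0.06, FDR = 9.35e-05 for BMP/FGF against BMP). The smaller BMP/FGF excess over EGF/FGF (0.18, SE 0.06, FDR = 0.0115) lost its call without BL6 EGF/FGF replicate 1 (FDR = 0.0618) or BL6 BMP/FGF replicate 1 (FDR = 0.0650) or 2 (FDR = 0.0535), and was 0.06 in the ANS4 libraries alone. An antisense transcript, Kcnd3os, overlaps Kcnd3 by 626 bases on the other strand, and the strand setting of the counting was not given in the sources used here.

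Kcnd1 (Kv4.1) rose from 2.33 ± 0.454 CPM to 6.87 ± 0.747 in BMP and 9.47 ± 1.41 in BMP/FGF (SD, n = 4; log2 fold changes 1.56 and 2.02, FDR = 9.09e-08 and 1.87e-09). Between BMP/FGF and BMP it differed by 0.47 (FDR = 0.0126), but not in the ANS4 libraries alone (FDR = 0.250) or without BL6 BMP/FGF replicate 2 (FDR = 0.0595). Kcnd2 (Kv4.2) had 2.54, 2.22, 1.35 and 1.45 CPM in EGF/FGF and 2.48, 2.71, 5.13 and 3.65 in BMP (log2 fold change 0.87, SE 0.25, FDR = 0.00363), so that the ANS4 libraries of these conditions overlapped and the BL6 libraries did not.

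The cytosolic partners of Kv4 channels moved in both directions. Kcnip3 (also known as calsenilin or DREAM, a calcium sensor with a reported role as a transcriptional repressor) had 214, 215, 161 and 165 CPM in EGF/FGF, 92.3, 99.0, 115 and 132 in BMP and 159, 158, 138 and 132 in BMP/FGF. It was lowest in BMP (log2 fold change −0.77, SE 0.11, FDR = 5.12e-06) and intermediate in BMP/FGF (−0.36, SE 0.11, FDR = 0.00663 against EGF/FGF, and 0.41, SE 0.11, FDR = 0.00673 against BMP). The last value was 0.13 in the BL6 libraries alone (FDR = 0.196). Kcnip1 (KChIP1) showed the same order with wider gaps, at 4.09, 3.56, 3.64 and 3.92 CPM in EGF/FGF, 0.718, 1.27, 0.881 and 0.782 in BMP and 2.05, 2.21, 2.96 and 2.46 in BMP/FGF.

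No library of Kcnip1 overlapped another condition. Its log2 fold changes were −2.05 (SE 0.20, FDR = 3.16e-08), −0.66 (SE 0.17, FDR = 0.00209) and, between BMP/FGF and BMP, 1.40 (SE 0.21, FDR = 5.68e-05). The gene overlaps Kcnmb1 by 10629 bases on the opposite strand, although Kcnmb1 itself had too few reads to be tested. Kcnip2 (KChIP2) went the other way, with 0.621 to 1.61 CPM under EGF/FGF, 2.99 to 4.90 under BMP and 2.59 to 3.85 under BMP/FGF (log2 fold changes 1.91 and 1.64, FDR = 3.02e-07 and 3.10e-06). Dpp6, a membrane partner of Kv4 named outside the Kcn series, was also higher, at 0.633 CPM in EGF/FGF, 7.29 in BMP and 3.34 in BMP/FGF (log2 fold changes 3.48 and 2.41, and −1.07 between BMP/FGF and BMP, FDR = 0.00177).

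Kvβ subunits bind Kv1 channels from inside the cell. Kcnab3 (Kvβ3) fell from 9.63 ± 0.810 CPM to 3.77 ± 0.492 in BMP and 4.16 ± 0.619 in BMP/FGF (SD, n = 4; log2 fold changes −1.35, FDR = 3.69e-08 and −1.21, FDR = 1.52e-07). Kcnab1 (Kvβ1) rose from 0.233 ± 0.0295 CPM to 1.14 ± 0.367 and 1.24 ± 0.182 (2.26, FDR = 2.16e-06 and 2.38, FDR = 1.04e-06). Kcnab2 (Kvβ2), the most abundant of these subunits per kilobase, lay between 11.8 and 16.7 CPM in all libraries and differed by 0.22 in BMP (FDR = 0.0323) and 0.05 in BMP/FGF (FDR = 0.619).

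The Kv7 channels carry the M-current, a slow current that damps repetitive firing. Kcnq3 (Kv7.3) had at most 3 counts in each EGF/FGF library, 1.71, 1.27, 2.49 and 1.98 CPM in BMP and 1.45, 1.40, 2.51 and 1.90 in BMP/FGF, hence at least 11.9-fold and at least 11.6-fold higher (FDR = 2.31e-09 and 3.08e-09). BMP and BMP/FGF overlapped fully. Kcnq5 (Kv7.5) had 4.21, 4.60 and 5.48 CPM and was higher only in BMP/FGF against EGF/FGF (0.38, FDR = 0.0231).

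In the EAG, ERG and ELK family, Kcnh2 (ERG1, the rapid delayed rectifier of the heart) fell in 2 steps. Its libraries had 21.7, 21.3, 23.6 and 24.1 CPM in EGF/FGF, 13.0, 15.3, 12.2 and 15.9 in BMP and 9.53, 9.21, 9.89 and 8.26 in BMP/FGF. No conditions overlapped, and the log2 fold change was −0.68 (SE 0.10, FDR = 3.41e-06) in BMP, −1.30 (SE 0.10, FDR = 1.39e-09) in BMP/FGF and −0.61 (SE 0.10, FDR = 0.000153) between them. Kcnh5 (EAG2) rose from 0.362, 0.413, 0.468 and 0.671 CPM to 4.86, 4.20, 4.51 and 3.07 in BMP and 4.69, 4.58, 4.36 and 4.58 in BMP/FGF, or 8.56-fold and 9.38-fold (FDR = 4.19e-10 and 2.26e-10).

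Kcnh3 (ELK2) was at a low level and higher in both quiescent conditions (1.32 and 1.37 log2). Kcnh7 (ERG3), at a mean of 0.598 CPM (4 to 16 counts per library), was lower in BMP/FGF than in either other condition. Its log2 fold change was −0.78 against EGF/FGF (FDR = 0.0349) and −0.83 against BMP (FDR = 0.0478), the latter close to the threshold. Kcnh4 (ELK1) had 1.66 ± 0.246, 1.56 ± 0.514 and 0.959 ± 0.197 CPM (SD, n = 4). Its BMP/FGF against BMP difference of −0.69 (FDR = 0.0397) was lost under 10 of 21 alternatives, including DESeq2 (FDR = 0.0581) and the omission of ANS4 or BL6 BMP/FGF replicate 1, BL6 BMP/FGF replicate 2, ANS4 BMP replicate 1 or BL6 BMP replicate 2 (without the last, −0.48).

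The calcium-activated SK genes, whose small-conductance channels follow each calcium rise with a lasting hyperpolarization, were higher in both quiescent conditions in all 3 tested members of 4. The shares of all tested genes that were higher were 40.8% in BMP and 40.9% in BMP/FGF. Kcnn2 (SK2) was at 0.414, 0.827, 0.832 and 0.568 CPM in EGF/FGF, 10.3, 10.5, 10.7 and 11.8 in BMP and 11.2, 10.6, 10.8 and 8.21 in BMP/FGF. It rose 16.2-fold in BMP (log2 fold change 4.02, SE 0.18, FDR = 7.71e-13) and 15.3-fold in BMP/FGF (3.94, SE 0.18, FDR = 1.14e-12), and the quiescent conditions differed by −0.08 (SE 0.12, FDR = 0.610). Kcnn1 (SK1) had 2.17, 2.84, 1.66 and 2.07 CPM in EGF/FGF, 12.1, 11.4, 12.2 and 14.2 in BMP and 15.5, 14.1, 14.0 and 13.7 in BMP/FGF.

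Kcnn1 therefore rose 5.69-fold and 6.53-fold (log2 fold changes 2.51 and 2.71, SE 0.14 each, FDR = 9.76e-12 and 3.16e-12). Kcnn3 (SK3), the most abundant of the SK genes per kilobase, was at 4.86, 5.11, 5.46 and 4.54 CPM in EGF/FGF, 22.4, 19.8, 15.0 and 15.5 in BMP and 14.9, 15.1, 15.2 and 14.5 in BMP/FGF, with the ANS4 libraries highest in BMP. The rise was 3.61-fold in BMP (FDR = 5.65e-11) and 2.99-fold in BMP/FGF (FDR = 6.80e-10). A BMP/FGF against BMP difference of −0.27 (FDR = 0.0401) was lost under 9 of 21 alternatives, including the omission of any single ANS4 library of either condition or BL6 BMP/FGF replicate 2 (−0.19 to −0.30), and came to −0.04 in the BL6 libraries alone.

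Of the large-conductance Slo genes, Kcnma1 (BK, opened by calcium and voltage together) fell while its neuronal accessory subunit rose. Kcnma1 had 3.21, 4.08, 4.06 and 4.65 CPM in EGF/FGF, 0.828, 0.885, 1.55 and 2.45 in BMP and 1.13, 0.916, 0.838 and 1.17 in BMP/FGF (0.353 and 0.256 times the EGF/FGF level, FDR = 8.19e-06 and 6.65e-07). Kcnmb4, the β4 subunit that slows BK gating, had 7.87, 10.0, 6.76 and 7.28 CPM in EGF/FGF, 16.9, 16.7, 14.4 and 16.3 in BMP and 31.0, 28.9, 29.7 and 25.0 in BMP/FGF. No libraries of 2 conditions overlapped for Kcnmb4.

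Each step of Kcnmb4 passed the test: 1.01 (SE 0.10, FDR = 4.11e-08) in BMP, 1.85 (SE 0.10, FDR = 6.97e-12) in BMP/FGF and 0.84 (SE 0.09, FDR = 1.58e-06) between BMP/FGF and BMP. Kcnmb4os2, a noncoding RNA that overlaps Kcnmb4 by 716 bases on the opposite strand of chromosome 10, rose in parallel from 2.38 ± 0.108 to 4.13 ± 0.571 and 6.97 ± 0.644 CPM (SD, n = 4; log2 fold changes 0.79, 1.55 and 0.75, highest FDR = 0.000167). Without the strand of the counting, reads of the shared stretch cannot be assigned to either gene with certainty.

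Kcnt1 (Slack, a sodium-activated channel) had 0.258 to 0.416 CPM in EGF/FGF, 1.82, 3.71, 3.26 and 3.44 in BMP and 1.19, 1.62, 1.62 and 1.40 in BMP/FGF. The levels did not overlap between conditions. The log2 fold change was 3.10 (SE 0.28, FDR = 1.11e-08) in BMP, 2.04 (SE 0.31, FDR = 1.15e-05) in BMP/FGF and −1.07 (SE 0.22, FDR = 0.000888) between them. Kcnu1 (Slo3, known as a channel of sperm) rose from 0.362 ± 0.147 CPM to 1.35 ± 0.425 and 1.42 ± 0.335 (SD, n = 4; FDR = 8.22e-05 and 5.08e-05).

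Among the inward rectifiers, Kcnj10 (Kir4.1; chromosome 1, 172341210 to 172374085), which carries the potassium uptake of astrocytes, was lower in BMP than in the other conditions. It had 944, 921, 815 and 765 CPM in EGF/FGF, 653, 605, 451 and 466 in BMP and 778, 771, 735 and 738 in BMP/FGF. All BMP libraries lay below all libraries of the other conditions, whereas EGF/FGF and BMP/FGF overlapped. The log2 fold change was −0.67 (SE 0.07, FDR = 1.05e-07) in BMP and 0.49 (SE 0.07, FDR = 3.64e-05) for BMP/FGF against BMP. BMP/FGF against EGF/FGF gave −0.18 (SE 0.07, FDR = 0.0269), which lost its call under 6 of 21 alternatives, including no line covariate and the omission of ANS4 EGF/FGF replicate 1, BL6 EGF/FGF replicate 1 or either ANS4 BMP/FGF library (highest FDR = 0.119).

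Kcnj10 was thus lower in BMP while the summed astrocyte markers were higher there. Kcnj16 (Kir5.1), which forms mixed channels with Kir4.1, was higher in both quiescent conditions, with 11.1 to 14.9, 18.3 to 23.7 and 20.2 to 26.0 CPM (log2 fold changes 0.58 and 0.75). Kcnj16 lies beside Kcnj2 on chromosome 11, and these neighbours moved oppositely.

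The strong inward rectifiers of the Kir2 group were split. Kcnj2 (Kir2.1) fell from 3.10, 2.48, 4.27 and 4.44 CPM to 1.55, 0.830, 1.45 and 0.834 in BMP and 1.19, 1.08, 1.34 and 0.893 in BMP/FGF (log2 fold changes −1.60, SE 0.23, FDR = 5.37e-06 and −1.65, SE 0.23, FDR = 4.57e-06). Kcnj12 (Kir2.2) fell from 2.74 ± 0.320 CPM to 0.952 ± 0.364 and 0.917 ± 0.379 (SD, n = 4; −1.52 and −1.57, FDR = 4.65e-05 and 3.81e-05). Kcnj4 (Kir2.3) had 2.74, 2.58, 1.56 and 1.91 CPM in EGF/FGF and 0.662, 0.664, 1.35 and 1.51 in BMP (−1.07, SE 0.28, FDR = 0.00223), with the lower BMP values in ANS4 and −0.30 (FDR = 0.347) in the BL6 libraries alone. For BMP/FGF against EGF/FGF, −0.73 (FDR = 0.0213) became −0.19 (FDR = 0.548) in BL6 alone and lost its call without either ANS4 EGF/FGF library or ANS4 BMP/FGF replicate 2 (−0.57 to −0.61).

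Kcnj14 (Kir2.4) rose instead, from 1.45, 1.34, 1.09 and 0.878 CPM to 8.06, 7.91, 5.34 and 5.00 in BMP and 3.88, 2.96, 3.02 and 3.35 in BMP/FGF. It was 5.47-fold higher in BMP (log2 fold change 2.45, SE 0.17, FDR = 2.10e-10), 2.78-fold higher in BMP/FGF (FDR = 6.61e-07) and lower in BMP/FGF than in BMP (−0.97, SE 0.14, FDR = 4.00e-05). Kcnj11 (Kir6.2, the pore of the ATP-sensitive channel) averaged 0.337, 0.688 and 0.875 CPM in EGF/FGF, BMP and BMP/FGF and was higher in BMP and BMP/FGF than in EGF/FGF (1.01 and 1.36, FDR = 0.0106 and 0.000878).

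Of the 6 tested leak channel genes, 4 were higher and 1 lower in BMP, beside 40.8% and 38.8% of all tested genes. Kcnk2 (TREK-1, opened by stretch, heat and lipids) was at 92.4, 87.9, 76.5 and 78.2 CPM in EGF/FGF, 177, 160.0, 181 and 174 in BMP and 171, 169.6, 177 and 173 in BMP/FGF. It rose 2.07-fold in BMP (log2 fold change 1.05, SE 0.07, FDR = 8.55e-11) and 2.06-fold in BMP/FGF (FDR = 9.56e-11). Its relative Kcnk10 (TREK-2) went from 3.27 ± 0.367 CPM to 6.95 ± 0.518 and 7.89 ± 0.413 (SD, n = 4; 1.08 and 1.27).

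Kcnk1 (TWIK-1) had 46.8, 42.3, 48.1 and 51.8 CPM in EGF/FGF, 85.9, 78.5, 61.8 and 58.7 in BMP and 58.8, 54.5, 59.5 and 57.1 in BMP/FGF, so that the BMP values stood higher in ANS4 than in BL6. It was higher in BMP (0.58, SE 0.10, FDR = 3.39e-05). The BMP/FGF differences, 0.28 from EGF/FGF (FDR = 0.0162) and −0.30 from BMP (FDR = 0.0207), were lost under 3 and 4 of 21 alternatives. The omitted libraries were ANS4 EGF/FGF replicate 2 and either BL6 BMP/FGF library for the first, and either ANS4 BMP library and ANS4 BMP/FGF replicate 2 for the second. Without them the first was 0.21 to 0.25 and the second −0.21 to −0.26, and the second was −0.04 in the BL6 libraries alone.

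The acid-sensitive leak channels were opposed. Kcnk3 (TASK-1) had at most 3 counts in each EGF/FGF library, 2.04, 1.77, 0.881 and 1.88 CPM in BMP and 1.40, 1.29, 1.12 and 0.670 in BMP/FGF, at least 10.5-fold and at least 7.18-fold higher (FDR = 6.76e-08 and 1.05e-06). Kcnk5 (TASK-2, closed by acid and known from kidney) fell from 4.50, 5.27, 4.94 and 4.96 CPM to 0.938, 0.830, 0.777 and 0.469 in BMP and 0.539, 0.539, 0.614 and 0.726 in BMP/FGF. Its log2 fold change was −2.70 (SE 0.19, FDR = 4.77e-10) in BMP and −3.01 (SE 0.20, FDR = 2.13e-10) in BMP/FGF. Kcnk13 (THIK-1) was higher only in BMP/FGF against EGF/FGF (1.47, FDR = 0.00131).

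The noncoding Kcnq1ot1, an imprinted transcript inside the Kcnq1 gene, had 18.7 ± 4.10 CPM in EGF/FGF, 23.9 ± 4.08 in BMP and 18.9 ± 1.87 in BMP/FGF (SD, n = 4), with the BL6 libraries above the ANS4 libraries in all conditions. It was higher in BMP (0.36 against EGF/FGF, FDR = 0.00112) and lower in BMP/FGF than in BMP (−0.33, FDR = 0.00663), the latter not in the ANS4 libraries alone or without the line covariate (highest FDR = 0.105). Kcnq1 itself, on the opposite strand, had at most 3 counts in any library.

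**Figure D3:**
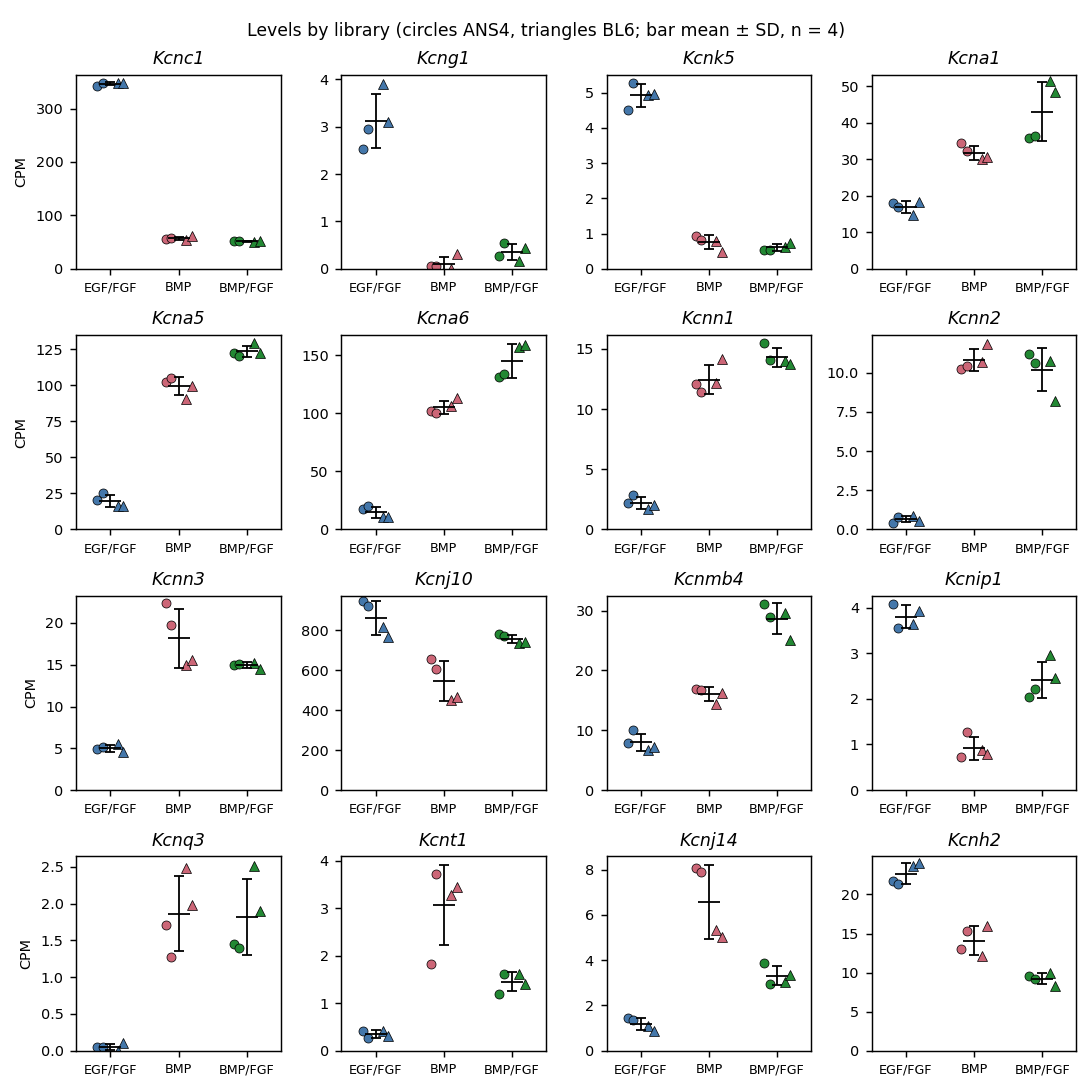
CPM (y axis, linear from 0) of 16 potassium channel genes in every library by condition, with circles for ANS4, triangles for BL6 and bars for the mean ± SD of 4 libraries. Kcnc1, Kcng1 and Kcnk5 are highest in EGF/FGF, the Kcna and Kcnn panels are high in both quiescent conditions, and Kcnt1 and Kcnj14 are highest in BMP.

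In the comparison of the quiescent conditions, the members higher in BMP/FGF included Kcnip1, Kcnmb4, Kcnmb4os2, Kcnj10, Kcnd1, Kcna6, Kcna1, Kcnip3, Kcna5 and Kcng1. Those lower included Kcnt1, Kcnj14, Kcnh7, Kcnh4, Kcnh2, Kcnd3, Kcnq1ot1, Kcnk1 and Kcnn3. Of the higher members, Kcnip1, Kcnip3, Kcnj10 and Kcng1 were among those lower in BMP than in EGF/FGF, so their BMP/FGF level lay between the levels of the other conditions. Kcnt1, Kcnj14, Kcnd3, Kcnk1 and Kcnn3 lay between in the opposite sense, higher in BMP/FGF than in EGF/FGF and lower than in BMP.

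Markers of the neuroblast and neuron list had the same order of conditions as these 5 genes. Of its 13 genes, 11 were tested, 10 rose in BMP against EGF/FGF and 11 were lower in BMP/FGF than in BMP. Summed, they came to 619 to 642 CPM in EGF/FGF, 1425 to 2257 in BMP (1506 and 1425 in ANS4, 2257 and 2132 in BL6) and 1007 to 1094 in BMP/FGF. Map2 was the largest part of this sum, at a mean of 773.5 CPM over the 12 libraries, and rose 1.73-fold in BMP. Dcx rose 206-fold, Dlx2 15.9-fold and Tubb3 13.8-fold, so the sum understates their change, while Gad2 fell (log2 fold change −0.37). Rbfox3, a marker of mature neurons, had at most 4 counts in any library, and Stmn2 at most 12. In BMP this sum was higher in BL6 than in ANS4. Of these 5 genes, Kcnj14 (means of 7.99 CPM in ANS4 and 5.17 in BL6), Kcnk1 (82.2 and 60.3) and Kcnn3 (21.1 and 15.3) had the opposite order. Kcnt1 (2.76 and 3.35) and Kcnd3 (208 and 218) had the order of the sum, as did Kcnd2, which is not among the 5. The part of such cells in these values was not tested.

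The other marker lists also differed between conditions. Oligodendrocyte lineage markers summed to 238 to 298, 700.0 to 792 and 776 to 799 CPM in EGF/FGF, BMP and BMP/FGF (Sox10 at most 12 counts, Mog at most 5), and ependymal markers to 63.8 to 79.9, 231 to 286 and 222 to 236. Microglia markers summed to 9.56 to 14.7, 5.31 to 6.18 and 7.15 to 9.38 CPM, with Tmem119 at most 4 and Csf1r at most 2 counts, and endothelial and mural markers to 4.53 to 6.57, 7.87 to 11.1 and 10.2 to 15.0. Their part in the channel values was not tested.

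An unequal response of the lines was examined for each tested member, and the share called in BMP against EGF/FGF was near that of all genes. The difference between BMP and EGF/FGF was unequal in ANS4 and BL6 for 5 of 51 members (edgeR interaction test, FDR under 0.05; 9.02% of all genes), and that between BMP/FGF and BMP for 4 (13.5% of all genes). For Kcna6 the rise in BMP was 2.43 in ANS4 and 3.35 in BL6 on the log2 scale, for Kcnd2 0.12 and 1.56, and for Kcnk1 0.88 and 0.27. The fall of Kcnip3 was −1.16 in ANS4 and −0.40 in BL6, and that of Kcnj4 −1.85 and −0.26.

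Between BMP/FGF and BMP, Kcna1 differed by 0.12 in ANS4 and 0.72 in BL6, Kcnj10 by 0.30 and 0.68, Kcnk1 by −0.54 and −0.05, and Kcnip3 by 0.73 and 0.13. In none of these genes did the lines have opposite signs.

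**Figure D4:**
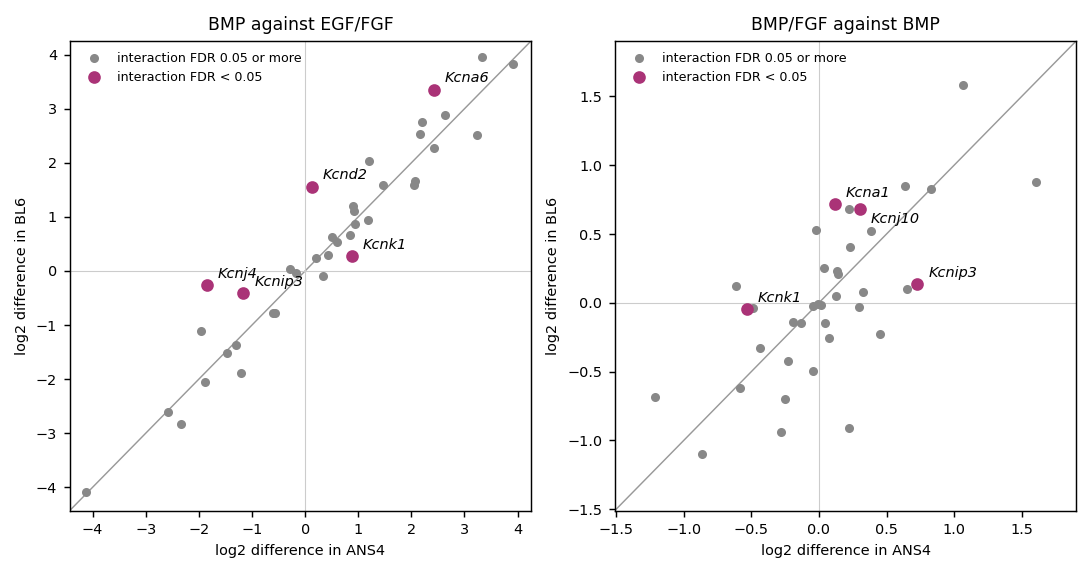
Log2 difference in BL6 (y axis) against that in ANS4 (x axis) for 38 potassium channel genes with a mean above 1 CPM, for BMP against EGF/FGF (left) and BMP/FGF against BMP (right), with the diagonal of equal differences and genes past the interaction test in purple. Kcna6 and Kcnd2 lie above the diagonal on the left, and Kcnip3 lies above it on the left and below it on the right.

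Genes that handle potassium together with these channels were examined as a separate list of pumps, cotransporters and the glial anchoring and coupling proteins. Of 18 tested, 14 were higher and 2 lower in BMP than in EGF/FGF, 14 and 1 in BMP/FGF, and 4 and 7 in BMP/FGF against BMP, with medians of 1.55, 0.84 and −0.08. In either direction these were 88.9%, 83.3% and 61.1% of the list, beside 79.6%, 78.9% and 41.4% of all tested genes. Fxyd1, a regulator of the sodium pump, was at 0.802 CPM in EGF/FGF, 162 in BMP and 131 in BMP/FGF (log2 fold changes 7.64 and 7.34, FDR = 2.86e-17 and 8.20e-17). Aqp4, the water channel that shares astrocyte endfeet with Kir4.1, was at 82.3, 1049 and 1362 CPM (3.68 and 4.09). Dtna, a scaffold of the dystrophin complex there, was at 41.2, 275 and 234 CPM (2.74 and 2.50).

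Kcnj10 therefore fell in BMP while Aqp4 and Dtna rose. Under 10 of the alternatives 1 of the 18 genes, not 2, was lower in BMP, since Slc12a4 (a cotransporter) lay at the threshold with −0.15 (FDR = 0.0443).

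Of 11 channel partners named outside the Kcn series, 9 were in the table and 2 were tested, Amigo1 and Dpp6, the latter given above. Amigo1, a membrane protein that binds Kv channels, was at 12.9, 30.9 and 30.1 CPM in EGF/FGF, BMP and BMP/FGF (log2 fold changes 1.26 and 1.22, FDR = 6.93e-10 and 1.14e-09). Abcc8 and Abcc9, the sulfonylurea receptors that complete the ATP-sensitive channel with Kcnj11, averaged at most 0.160 CPM in any condition.

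Other voltage-gated cation channels formed a further list. Of 16 tested sodium, calcium and HCN channel genes, 10 were higher and 5 lower in BMP, 7 and 4 in BMP/FGF, and 2 and 4 in BMP/FGF against BMP, with medians of 0.67, 0.04 and −0.07. In either direction these were 93.8%, 68.8% and 37.5% of the list, beside 79.6%, 78.9% and 41.4% of all tested genes. Cacna1g, a T-type calcium channel, fell from 9.05 CPM to 3.23 and 3.29 (−1.47 and −1.45), and Hcn3 rose from 1.77 to 4.78 and 2.96 (1.42 and 0.74).

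The treatments themselves were read from short target lists. Of 5 BMP targets, 4 were higher and 1 lower (Id3) in BMP and in BMP/FGF, and 4 were lower in BMP/FGF than in BMP. All 6 FGF feedback genes fell in both quiescent conditions, and all 6 stood higher with FGF2 than with BMP4 alone.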

How the data were processed

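Bulk RNA-seq of 12 libraries was used. Per the study's methods, the authors trimmed reads with Trim Galore 0.5.0, quantified transcripts with kallisto 0.44.0 (mm10), summed them to genes with tximport and tested with DESeq2 1.27.32, and they deposited estimated counts per gene as whole numbers. The annotation version and the strand setting are not given in the sources used here. A deposited rlog table was not used.

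From the estimated counts, genes were filtered (filterByExpr on condition; 13312 of 17365 kept, 51 of 86 channel genes), TMM-scaled and fitted with edgeR 4.0.16 (glmQLFit and glmQLFTest, condition and line, all 12 libraries), with Benjamini-Hochberg FDR over all tested genes and a threshold of 0.05. CPM values are TMM-scaled without a prior count, and SE is the log2 fold change over the root of F. The steps were tested on simulated data. A gene with at most 3 counts in every library of a condition is given as a lower bound. Total counts per library (18069052 to 19451818) set this limit, which covers counting error only. Positions come from a GENCODE annotation of GRCm38, promoters from RefSeq.

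Named members were, per comparison, up to 10 with the largest change in each direction at a mean of at least 1 CPM, those past 1.5, the leading gene of each subfamily per kilobase, and those unequal between lines. Some members and other genes are not reported here; counts include them. Members and lists were chosen with earlier results of these data known. Alternatives were RLE or no scaling factors, DESeq2 1.42.0, no filter, no line covariate, a replicate block, fewer libraries or 1 line, and each library left out.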

Additional observations from a re-analysis of the deposited data

Results flagged for a closer look

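In EGF/FGF, Kcnd1 had 1.65 CPM in BL6 EGF/FGF replicate 2 and 2.50 to 2.59 CPM in the other libraries, a gap past Dixon's 95% value for 4 samples, which chance passes in about 1 in 20 groups. It was the only such group among 108 examined.

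The remaining results are differences between the lines, given as BL6 minus ANS4 on the log2 scale with the FDR of the edgeR interaction test. For BMP against EGF/FGF they were 0.93 for Kcna6 (FDR = 8.58e-05), 0.76 for Kcnip3 (FDR = 0.000132), −0.61 for Kcnk1 (FDR = 0.00241), 1.52 for Kcnd2 (FDR = 0.00990) and 1.72 for Kcnj4 (FDR = 0.0160). Kcnj4 lost this call without ANS4 EGF/FGF replicate 1, BL6 EGF/FGF replicate 1 or either ANS4 BMP library (highest FDR = 0.0655). With DESeq2 its difference was 1.72 but had no FDR, so it was not called there.

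For BMP/FGF against BMP they were −0.60 for Kcnip3 (FDR = 0.000864), 0.60 for Kcna1 (FDR = 0.00574), 0.38 for Kcnj10 (FDR = 0.00581) and 0.49 for Kcnk1 (FDR = 0.00719), the last at FDR = 0.0501 without ANS4 BMP/FGF replicate 2. Kcnip3 and Kcnk1 differed between the lines in both comparisons, with opposite signs, and these comparisons share the BMP libraries.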

How the results depend on the processing

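Of 107 called differences of members chosen by the naming rule above, 87 kept their direction and their side of the threshold under every alternative (up to 21 each), 20 lost the call under at least 1, and 0 reversed. Calls of other members, among them Kcnab2, Kcnh3, Kcnh7, Kcnj11, Kcnj16, Kcnk10, Kcnk13 and Kcnq5, were not followed singly through the alternatives. Counts of channel genes stayed within 1.5 times the value reported, except the BMP/FGF against BMP line differences, 4 as reported and 7 without BL6 BMP replicate 1. The replicates of BL6 BMP differed most from each other. Their chi-square per degree of freedom was 12.4 over all genes with enough reads, beside 2.14 to 4.76 in the other groups. With each library left out, the counts ranged from 31 to 32 higher and 13 to 14 lower in BMP, 28 to 31 and 13 to 16 in BMP/FGF, 8 to 13 and 8 to 12 in BMP/FGF against BMP, 4 to 7 and 3 to 7 for the line differences, and 41 to 43 genes above 1 CPM, a count added after the data were examined. Genes above 1 CPM were 31 if every condition had to pass and 50 if any library could. The replicate numbers did not pair the samples: deviations of same-numbered libraries correlated at −0.0711 to 0.0529 over all tested genes. A replicate block gave 32 higher and 13 lower in BMP, 31 and 15 in BMP/FGF and 10 and 8 in BMP/FGF against BMP. Genes near 1 CPM rest on about 20 reads per library, and their calls between BMP/FGF and BMP were the ones most often lost.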
